A study of Mus musculus with 69 samples.

Results

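The 10 genes described here encode neuronal splicing regulators: the neuronal ELAV-like proteins Elavl3 and Elavl4, the RBFOX proteins Rbfox1, Rbfox2 and Rbfox3, the NOVA proteins Nova1 and Nova2, the polypyrimidine tract-binding protein Ptbp2, and the serine/arginine repetitive matrix proteins Srrm3 and Srrm4. They were chosen by name from knowledge of splicing biology, with earlier results of these data known, and all 10 were found among the 55401 gene IDs of the largest tables and in every other table. RNA was sequenced from the pituitary, the hypothalamus and the ovary in female mice on a C57BL/6J background, all collected at proestrus. Wild-type (WT) mice were compared with mice carrying 1 (Zeb1_200H) or both (Zeb1_200M) copies of a Zeb1 knock-in allele, here 200H and 200M, in which point mutations disrupt the sites for the miR-200a and miR-200b microRNA families in the Zeb1 3′ untranslated region. The allele was present in every tissue from conception, so that no promoter or Cre driver confined it to a cell type. Knock-in lines were made from 2 embryonic stem cell clones, and the labels do not say from which the sequenced mice came. The young cohort was virgin and 8 to 12 weeks old (35 libraries), and the older cohort was 28 to 36 weeks old and had been through a breeding trial (34 libraries). Every group held 4 libraries from different mice, except that young WT pituitary, older 200M pituitary and older 200M hypothalamus held 3 each. Age, breeding history, library chemistry and read counting differed together between the cohorts and cannot be told apart. The paper reports that most females with both copies of the allele had no litter in the breeding trial. Within the older cohort, pregnancy history may therefore differ along with genotype, and the labels do not give it for the sequenced mice. Its part in the older differences between mutants and WT was not tested.

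Neuronal splicing regulators bind short motifs in pre-mRNA and switch the inclusion of alternative exons during neuronal differentiation. Srrm4 and Srrm3 promote neuronal microexons, RBFOX proteins bind GCAUG elements, NOVA proteins bind YCAY clusters, neuronal ELAV-like proteins bind U-rich sequences and also stabilise mRNAs, and Ptbp2 takes the place of the widely expressed repressor Ptbp1 in developing neurons. Pituitary endocrine cells are secretory and excitable, share part of this programme with neurons, and also carry epithelial splicing regulators of the Esrp family. ZEB1 is a zinc-finger repressor that binds E-box sequences, and it is both a target and a repressor of the miR-200 genes.

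The microRNAs whose pairing with Zeb1 was removed fall into 2 seed groups that differ at a single seed base. They are shown because the allele was built against these seeds, with the seed (bases 2 to 8) in capitals; the sequences are from RefSeq (GRCm38.p6).
mmu-miR-200b-3p: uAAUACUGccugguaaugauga
mmu-miR-200c-3p: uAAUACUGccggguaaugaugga
mmu-miR-429-3p: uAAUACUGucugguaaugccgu
mmu-miR-200a-3p: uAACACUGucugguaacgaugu
mmu-miR-141-3p: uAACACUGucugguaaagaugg
miR-200b-3p, miR-200c-3p and miR-429-3p share the seed AAUACUG, and miR-200a-3p and miR-141-3p share AACACUG. Matches to either seed (CAGTATT or CAGTGTT) were counted in the longest annotated 3′ untranslated region of each member (GENCODE M21, GRCm38). Nova1 had 4 matches in 5452 bases, Nova2 had 3 in 6701 bases, Srrm4 had 3 in 5292 bases, Rbfox2 had 2 in 5172 bases and Rbfox3 had 1 in 1480 bases. Elavl3, Elavl4, Rbfox1, Ptbp2 and Srrm3 had none. The 5 of 10 members with a match compare with 25.6% of 20998 genes with an annotated 3′ untranslated region, and with 56.2% of the 5336 genes whose region was at least 2000 bases long.

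Among the 13 matches, 4 were extended by an A opposite base 1 of the microRNA. Those sites are shown because they are the longest matches in the members, with the paired heptamer in capitals.
Nova1 (chr12:46699637-46699643, minus strand): gtatagttttCAGTATTagttc
Nova1 (chr12:46697663-46697669, minus strand): atgttttgttCAGTATTagcaa
Nova2 (chr7:18963927-18963933, plus strand): ctcgagagaaCAGTATTaactc
Rbfox3 (chr11:118489798-118489804, minus strand): ttcaaattaaCAGTATTattat
All of these sites match the miR-200b seed group. Both members with the largest changes in the mutant pituitary, Elavl3 and Rbfox1, had no heptamer match in this search. Sites that pair with fewer seed bases, and other 3′ untranslated regions of a gene, were not searched. Whether any member is a direct target of these microRNAs was not tested.

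Promoter sequence was available for 9 of the 10 members (13 annotated start sites) and was scanned over 250 bases upstream of each start for the E-box letters CAGGTG and CAGGTA on both strands. At least 1 such hexamer lay in 4 of these 13 windows, belonging to Elavl3, Elavl4 (2 overlapping windows that hold the same hexamer) and Rbfox3, against 25.38% of 32851 annotated promoters. The windows that held it are shown with the hexamer in capitals, written CACCTG where CAGGTG lies on the other strand (RefSeq, GRCm38.p6, minus strand, ending at the base before the start).
Elavl3 (chr9:22052024-22052273): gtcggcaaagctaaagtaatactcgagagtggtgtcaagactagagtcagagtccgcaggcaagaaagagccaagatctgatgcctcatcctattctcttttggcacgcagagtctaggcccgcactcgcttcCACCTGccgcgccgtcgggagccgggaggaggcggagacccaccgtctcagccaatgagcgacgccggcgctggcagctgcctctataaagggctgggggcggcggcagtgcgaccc
Elavl4 (chr4:110287528-110287777): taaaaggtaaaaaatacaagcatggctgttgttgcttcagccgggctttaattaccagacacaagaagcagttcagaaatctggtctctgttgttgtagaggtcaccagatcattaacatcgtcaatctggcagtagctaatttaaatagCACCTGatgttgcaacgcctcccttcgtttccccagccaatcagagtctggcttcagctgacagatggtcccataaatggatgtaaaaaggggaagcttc
Rbfox3 (chr11:118761042-118761291): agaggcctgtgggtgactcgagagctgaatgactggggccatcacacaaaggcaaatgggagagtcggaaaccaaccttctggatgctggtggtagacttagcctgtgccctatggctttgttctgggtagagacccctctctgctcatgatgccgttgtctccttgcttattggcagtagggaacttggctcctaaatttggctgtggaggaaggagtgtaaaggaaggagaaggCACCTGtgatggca
The hexamer began 117 bases before the start in Elavl3, 100 bases before it in Elavl4 and 14 bases before it in Rbfox3. None of the windows of Rbfox1, Nova1, Nova2, Ptbp2, Srrm3 or Srrm4 held CAGGTG or CAGGTA. The left part of the RE1 element bound by the neuronal repressor REST, searched as TTCAGCACC on both strands, was found in no member window and in 0.3% of all windows. Its right part, searched as GGACAG, was found in the Ptbp2 window, in no other member window and in 18.67% of all windows. Annotated exons covered all 250 bases of the Ptbp2 window, 162 bases of the Nova1 window, and 55 and 16 bases of separate Elavl4 windows. The starts used for Rbfox3, Srrm3, Ptbp2 and Nova1 lay within the annotated gene. So did the downstream Rbfox1 start and every Elavl4 start except the most upstream, including those with the hexamer. A match or its absence describes letters only, and binding was not measured.

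Zeb1, the edited gene, was measured first as a check of the labels. In the young pituitary its level in CPM (read counts scaled to a common library size, with trimmed-mean or TMM factors) was 95.6 to 98.5 in WT, 127 to 135 in 200H and 132 to 141 in 200M, and in the older pituitary it was 55.3 to 62.7, 70.1 to 76.1 and 80.6 to 93.0, so that both mutant groups lay above WT in each cohort. The 200M increase over WT was 0.52 ± 0.06 (log2, SE, adjusted p = 2.39e-05) in young pituitary, against 0.55 ± 0.09 (adjusted p = 0.000833) in older pituitary, both from edgeR's quasi-likelihood test. In hypothalamus and ovary, Zeb1 passed the test in none of the 8 comparisons of a mutant with WT, with values from -0.26 to -0.05. Tissue labels fitted their markers: summed over 8 endocrine genes, WT pituitary held 163977 to 322099 CPM and WT hypothalamus 17.7 to 93.2 CPM; 6 neuronal genes summed to 3071 to 3622 CPM in WT hypothalamus; 6 ovarian genes summed to 1094 to 6905 CPM in WT ovary. Total counts ranged from 3321845 to 14655095 per library, lowest in the young hypothalamus (3321845 to 5143128).

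In WT animals the members differed widely in level and in tissue. Per kilobase of annotated exon, Rbfox2 was the highest member in the pituitary of both cohorts, at 27.3 ± 0.914 CPM per kb in the young and 21.1 ± 1.59 in the older animals. Ptbp2 (25.5 ± 1.25), Nova2 (16.4 ± 1.31) and Srrm4 (15.6 ± 2.64) followed in the young pituitary, and the ranges of Nova2 and Srrm4 overlapped. At the lower end stood Elavl4 (3.47 ± 0.572), Rbfox3 (2.93 ± 0.779), Rbfox1 (2.09 ± 0.566) and Elavl3 (0.884 ± 0.219). Neighbours among Elavl4, Rbfox3 and Rbfox1 were within each other's range, whereas every Elavl3 library lay below every Rbfox1 library. In the older pituitary Srrm3 (15.2 ± 0.863) and Srrm4 (10.9 ± 1.37) stood next to Rbfox2, and Rbfox1, Elavl3 and Elavl4 were at or below 0.973 CPM per kb with overlapping ranges. These orders were not compared between the cohorts, whose libraries were prepared differently.

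Compared with the hypothalamus, a tissue rich in neurons, the WT pituitary was lower in 8 of 10 members in each cohort, against 35.4% of all genes tested lower in the young and 39.2% in the older comparison. The largest deficits were those of Elavl3, at -4.86 ± 0.12 (adjusted p = 1.13e-20) at the young age and -5.22 ± 0.12 (adjusted p = 9.10e-14) at the older age. Rbfox1 (-4.10 and -4.91), Elavl4 (-3.60 and -4.44), Rbfox3 (-2.84 and -3.84) and Nova1 (-2.82 and -2.83) were also far lower, on the log2 scale and in the order young and older. Ptbp2, Nova2 and Rbfox2 were lower by smaller amounts, between -1.56 and -0.56. Srrm4 was higher in the pituitary, by 0.64 ± 0.10 (adjusted p = 2.57e-06) in the young cohort and 0.40 ± 0.10 (adjusted p = 0.00268) in the older, although with total-count scaling the older difference was 0.17 (adjusted p = 0.136). For Srrm3 the differences were 0.20 ± 0.13 and -0.07 ± 0.11 (SE), and neither passed the test. Total-count scaling turned the older Srrm3 difference into a call, at -0.29 (adjusted p = 0.021).

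In the ovary most members were scarce. WT levels were at most 1.196 CPM per kb in the young ovary for Rbfox1, Rbfox3, Elavl4, Elavl3, Srrm4 and Srrm3, whereas Ptbp2 (33.1 ± 2.02) and Rbfox2 (22.4 ± 0.768) were abundant. The older ovary showed Rbfox2 at 19.8 ± 0.396 and Ptbp2 at 8.89 ± 0.680 CPM per kb, with the other 8 members at or below 1.11. Srrm3 was at 0 counts in 5 of the 12 older ovary libraries and at 0.16 CPM or less in the others.

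The comparison at the centre of the design asks what the miR-200-resistant allele did to these genes in the pituitary. In young 200M pituitaries 6 of 10 members rose over WT (Elavl3, Rbfox1, Elavl4, Nova1, Nova2 and Rbfox2), none fell, and among 18199 genes 11.5% were called higher and 10.0% lower. Elavl3 and Rbfox1 changed most, by 4.14 and 2.88 times. In older 200M pituitaries 7 of 10 rose (Elavl3, Rbfox1, Elavl4, Rbfox3, Rbfox2, Nova2 and Ptbp2), none fell, and among 14711 genes 11.7% were called higher and 9.77% lower. One copy of the allele was enough for calls: in 200H, 6 of 10 rose in the young cohort (6.56% of 18051 genes higher, 5.72% lower) and 5 of 10 in the older (7.09% of 14922 genes higher, 5.14% lower), although these counts went down to 3 without young WT replicate 1 or without older 200H replicate 4. The median log2 change over the 10 members was 0.42 (young 200M), 0.30 (young 200H), 0.46 (older 200M) and 0.35 (older 200H), beside medians over all tested genes between -0.01 and 0.01. Scaling to total counts in place of TMM would raise the median of all genes by 0.12 to 0.16 in these 4 comparisons, and the values here are relative to the TMM centre.

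**Figure D1:**
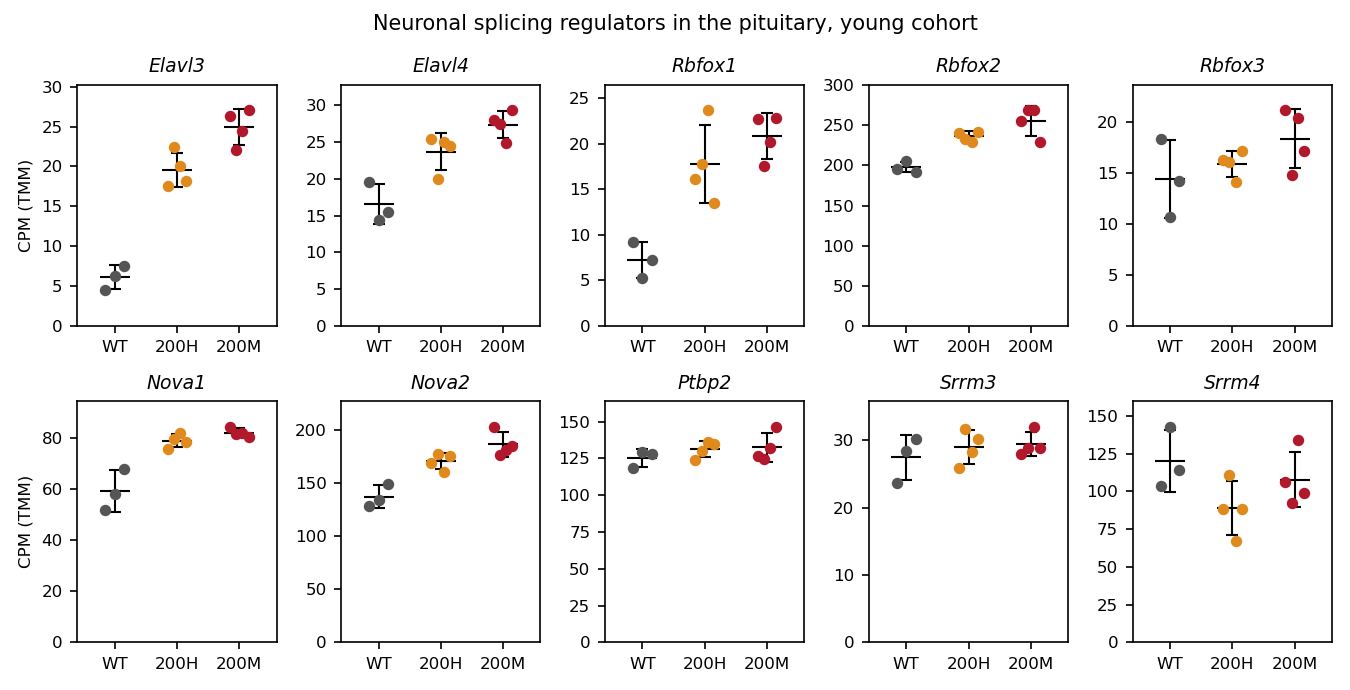
Levels of the 10 regulators in the young pituitary in CPM with TMM scaling (linear axes from 0), by genotype; points are libraries (3 WT, 4 200H, 4 200M), horizontal lines the mean and bars the SD. In 6 panels, Elavl3, Elavl4, Rbfox1, Rbfox2, Nova1 and Nova2, every mutant library lies above every WT library; in the other 4 the groups overlap.

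Elavl3, a neuronal RNA-binding protein of mature neurons, was the member with the largest increase in 3 of the 4 comparisons with WT, the exception being older 200H. Elavl3 measured 4.50, 6.27 and 7.50 CPM in young WT, 17.6, 22.4, 20.1 and 18.2 CPM in young 200H and 26.4, 22.0, 24.5 and 27.0 CPM in young 200M pituitary. Elavl3 in older animals measured 4.86, 6.83, 6.87 and 5.24 CPM in WT, 13.7, 16.7, 22.4 and 20.6 CPM in 200H and 25.7, 29.4 and 26.1 CPM in 200M pituitary. All mutant libraries were above all WT libraries in both cohorts. The young 200M change was 2.05 ± 0.16 (adjusted p = 4.34e-07), and the young 200H change was 1.70 ± 0.17 (adjusted p = 4.36e-05). In older animals the changes were 2.19 ± 0.15 (adjusted p = 1.67e-06) for 200M and 1.62 ± 0.19 (adjusted p = 0.00014) for 200H. Elavl3 (chr9:22015005-22052023, GRCm38, minus strand) shares 256 exonic bases with the annotated gene Gm49318 on its own strand, and reads there could not be assigned to either gene alone.

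Rbfox1, the RBFOX protein most closely tied to neurons and muscle, followed a like order of groups. Rbfox1 measured 9.20, 5.26 and 7.29 CPM in young WT, 16.2, 17.8, 23.7 and 13.5 CPM in young 200H and 22.8, 17.6, 20.2 and 22.8 CPM in young 200M pituitary. Rbfox1 in older animals measured 2.92, 3.93, 2.43 and 4.25 CPM in WT, 12.4, 8.64, 8.12 and 15.0 CPM in 200H and 14.0, 16.1 and 15.9 CPM in 200M pituitary. Every mutant library again exceeded every WT library. Changes of 1.53 ± 0.17 (adjusted p = 1.42e-05) in young 200M and 1.30 ± 0.21 (adjusted p = 0.00158) in young 200H were measured. The older values were 2.13 ± 0.19 (adjusted p = 1.42e-05) and 1.67 ± 0.24 (adjusted p = 0.000757). Both Elavl3 and Rbfox1 kept their calls in all 4 comparisons with WT under every alternative run, including each left-out library. Even so, the mutant level remained a small part of the hypothalamic one: Rbfox1 was at 20.8 ± 2.50 (SD, n = 4) CPM in young 200M pituitary and 119 ± 7.71 (SD, n = 4) CPM in young WT hypothalamus, each scaled within its own tissue.

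Elavl4, like Elavl3 a stabiliser of neuronal transcripts, rose less. Elavl4 measured 19.6, 14.4 and 15.5 CPM in young WT, 25.4, 19.9, 25.1 and 24.4 CPM in young 200H and 28.0, 27.5, 24.8 and 29.3 CPM in young 200M pituitary. Elavl4 in older animals measured 4.59, 4.53, 3.44 and 2.94 CPM in WT, 7.75, 5.97, 8.32 and 9.31 CPM in 200H and 10.8, 11.1 and 9.32 CPM in 200M pituitary. No mutant library fell within the WT range, though the lowest young 200H library (19.9) was close to the highest WT library (19.6). Its change was 0.74 ± 0.12 (adjusted p = 0.000408) in young 200M and 1.42 ± 0.20 (adjusted p = 0.000438) in older 200M. For 200H it was 0.53 ± 0.13 (adjusted p = 0.0216) at the young age and 1.00 ± 0.21 (adjusted p = 0.00788) at the older age. The young 200H call was lost without 200H replicate 1 (adjusted p = 0.0584), 200H replicate 4 (0.0596), WT replicate 2 (0.0846) or the WT library with no replicate number (0.0965).

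Rbfox3, whose product is the neuronal nuclear antigen NeuN, was called in the older cohort and not in the young. Rbfox3 measured 18.3, 10.6 and 14.3 CPM in young WT, 16.3, 16.0, 14.1 and 17.2 CPM in young 200H and 21.1, 14.8, 20.4 and 17.1 CPM in young 200M pituitary. Rbfox3 in older animals measured 4.59, 8.20, 6.06 and 11.1 CPM in WT, 10.2, 15.0, 13.7 and 16.1 CPM in 200H and 20.6, 20.5 and 17.6 CPM in 200M pituitary. The young groups overlapped, with 1 WT library at 18.3 CPM above most mutants, whereas all older 200M libraries were above WT and 1 older 200H library was within the WT range. The 200M change was 0.37 ± 0.17 (adjusted p = 0.151) at the young age and 1.35 ± 0.23 (adjusted p = 0.00158) at the older age. Without young WT replicate 1 the young change was 0.58 (adjusted p = 0.0399). The cohort difference itself was 0.92 ± 0.30 (adjusted p = 0.576), so that a call in one cohort only does not show that the cohorts differed. In older 200H the change was 0.84 ± 0.24 (adjusted p = 0.0373), and it was lost when any of 200H replicates 2, 3 and 4 or WT replicates 1, 2 and 3 was left out (adjusted p from 0.0742 to 0.108).

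Rbfox2, the widely expressed RBFOX protein and the most abundant member in the pituitary, rose by a small and even amount. Rbfox2 measured 196, 205 and 192 CPM in young WT, 241, 233, 229 and 242 CPM in young 200H and 255, 269, 269 and 229 CPM in young 200M pituitary. Rbfox2 in older animals measured 136, 158, 160.3 and 157 CPM in WT, 181, 196, 195 and 206 CPM in 200H and 209, 222 and 219 CPM in 200M pituitary. Mutant and WT libraries did not overlap in either cohort. The 200M changes were 0.38 ± 0.07 (adjusted p = 0.000776) (young) and 0.50 ± 0.08 (adjusted p = 0.00102) (older). In 200H they were 0.27 ± 0.06 (adjusted p = 0.0148) and 0.35 ± 0.08 (adjusted p = 0.0174); the young call was lost without WT replicate 1 (adjusted p = 0.0627) or the unnumbered WT library (0.0785), and the older without 200H replicate 4 (0.0504).

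The NOVA genes, neuronal KH-domain splicing factors, moved by similar amounts in the young pituitary. Nova1 measured 51.7, 58.2 and 68.0 CPM in young WT, 75.6, 79.6, 81.9 and 78.5 CPM in young 200H and 84.3, 81.7, 82.1 and 80.2 CPM in young 200M pituitary. Nova1 in older animals measured 22.9, 16.8, 16.4 and 20.8 CPM in WT, 23.6, 21.5, 24.8 and 27.7 CPM in 200H and 28.2, 24.8 and 24.2 CPM in 200M pituitary. Young mutants were all above WT, and in the older cohort the 200M libraries were just above the highest WT library (22.9). Nova1 changed by 0.48 ± 0.09 (adjusted p = 0.000945) in young 200M and by 0.42 ± 0.09 (adjusted p = 0.0105) in young 200H, the second lost without WT replicate 1 (adjusted p = 0.0613). In older 200M the value was 0.41 ± 0.14 (adjusted p = 0.0569), which passed the test without WT replicate 1 (0.0229) or WT replicate 4 (0.0382), and in older 200H it was 0.34 ± 0.13 (adjusted p = 0.12).

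Nova2 measured 128, 134 and 149.5 CPM in young WT, 169, 177, 161 and 175 CPM in young 200H and 203, 177, 182 and 185 CPM in young 200M pituitary. Nova2 in older animals measured 35.3, 37.8, 45.1 and 40.2 CPM in WT, 42.7, 43.5, 47.9 and 52.2 CPM in 200H and 48.0, 53.3 and 54.5 CPM in 200M pituitary. Nova2 in 200M was above WT without overlap in both cohorts, while older 200H libraries ran through the WT range. Changes of 0.46 ± 0.07 (adjusted p = 0.00031) and 0.40 ± 0.10 (adjusted p = 0.0147) were called in young and older 200M, the older one lost without 200M replicate 2 (adjusted p = 0.0682) or 3 (0.0717). In 200H the change was 0.33 ± 0.07 (adjusted p = 0.0127) in the young, lost without WT replicate 1 (0.0762), and 0.24 ± 0.10 (adjusted p = 0.15) in the older animals. Nova2 overlaps the antisense gene Gm26821 over 2652 exonic bases, and the older pituitary and hypothalamus libraries were counted without strand, so there reads from the pair could not be told apart.

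**Figure D2:**
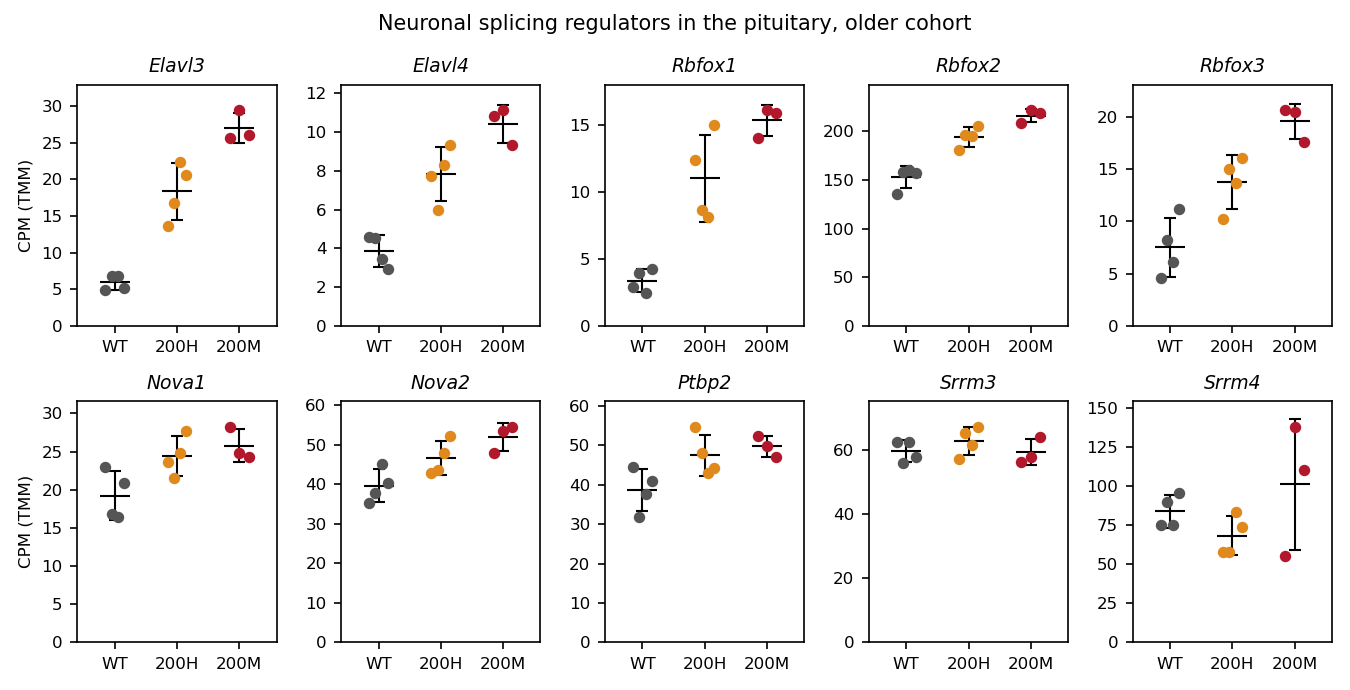
Levels of the 10 regulators in the older pituitary in CPM with TMM scaling (linear axes from 0), by genotype; points are libraries (4 WT, 4 200H, 3 200M), horizontal lines the mean and bars the SD. In 8 panels every 200M library lies above every WT library; Srrm3 and Srrm4 are the exceptions.

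Ptbp2, the neuronal paralogue of the repressor Ptbp1, was near its WT level in the young cohort. Ptbp2 measured 118, 129.5 and 128 CPM in young WT, 124, 129.9, 136 and 135 CPM in young 200H and 127, 125, 132 and 146 CPM in young 200M pituitary. Ptbp2 in older animals measured 44.5, 31.9, 37.8 and 40.9 CPM in WT, 54.7, 48.0, 43.0 and 44.3 CPM in 200H and 52.4, 49.9 and 47.0 CPM in 200M pituitary. The young groups overlapped, and the older 200M libraries lay just above the highest WT library. In young 200M the change was 0.09 ± 0.07 (adjusted p = 0.394). The older 200M change of 0.36 ± 0.12 (adjusted p = 0.0444) was called in edgeR and not in DESeq2 (adjusted p = 0.0533), and it was lost without 200M replicate 1 (0.149), 2 (0.125) or 3 (0.0836) and without WT replicate 2 (0.0945) or 3 (0.0785). Both 200H changes, 0.08 and 0.30, missed the threshold.

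Srrm3 and Srrm4, the microexon regulators, were called in none of the 4 comparisons with WT. Srrm3 measured 23.7, 28.4 and 30.2 CPM in young WT, 25.9, 31.7, 28.3 and 30.1 CPM in young 200H and 28.0, 28.9, 32.0 and 28.8 CPM in young 200M pituitary. Srrm3 in older animals measured 62.4, 55.7, 62.5 and 57.8 CPM in WT, 57.0, 65.1, 61.4 and 67.1 CPM in 200H and 56.3, 57.7 and 63.8 CPM in 200M pituitary. For Srrm3 the genotypes overlapped throughout. Its 4 changes against WT lay between -0.01 and 0.12 with standard errors of 0.08 to 0.11, and none was called.

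Srrm4 was the only member whose 200H level was below WT in the fit in both cohorts. Srrm4 measured 104, 143 and 114 CPM in young WT, 88.6, 111, 67.4 and 88.1 CPM in young 200H and 106, 92.4, 134 and 98.7 CPM in young 200M pituitary. Srrm4 in older animals measured 74.8, 89.9, 75.2 and 95.7 CPM in WT, 57.9, 57.7, 83.0 and 73.7 CPM in 200H and 55.4, 138 and 110.0 CPM in 200M pituitary. The groups overlapped in both cohorts, and older 200M replicate 1 (55.4) was far below the other 2 libraries of its group. In young 200H the change was -0.42 ± 0.14 (adjusted p = 0.0751) in edgeR, while DESeq2 gave -0.43 with adjusted p = 0.0376 and leaving out 200H replicate 2 gave -0.56 with adjusted p = 0.0161. In older 200H it was -0.31 ± 0.13 (adjusted p = 0.15). The 200M changes were -0.14 ± 0.12 (adjusted p = 0.476) at the young age and 0.27 ± 0.22 (adjusted p = 0.412) at the older age, the latter becoming 0.56 (adjusted p = 0.0171) without 200M replicate 1. A short antisense gene, Srrm4os, covers 68 exonic bases of Srrm4.

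**Figure D3:**
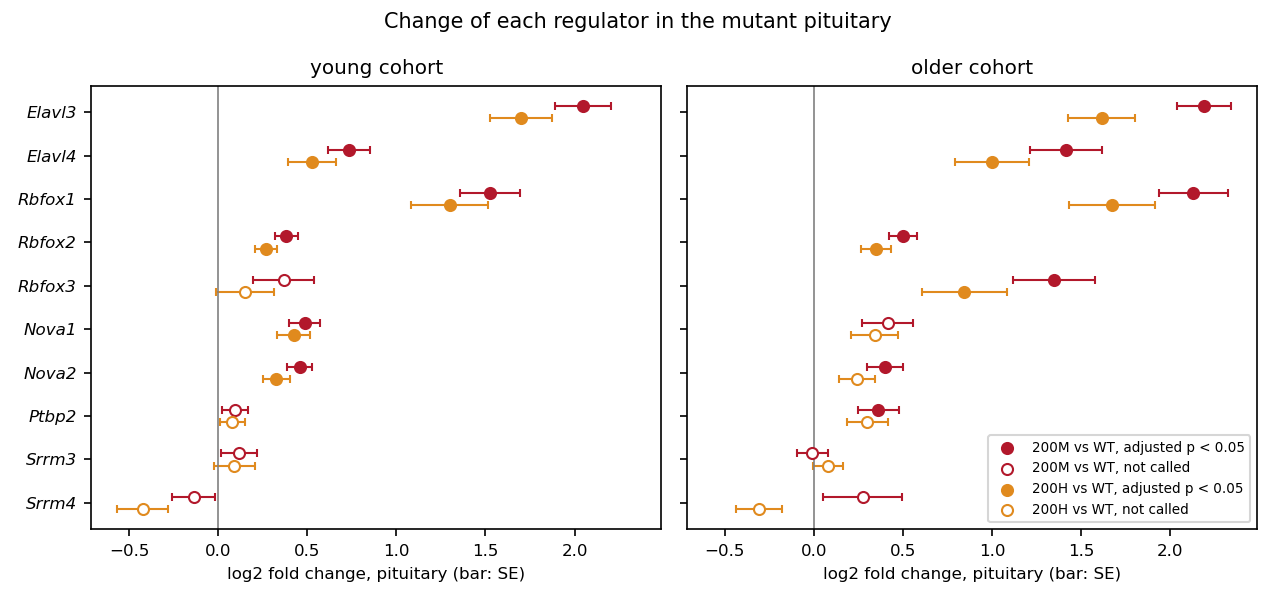
Log2 fold change of each regulator in the young (left) and older (right) pituitary against WT, with bars of 1 SE; red is 200M, orange is 200H, filled points passed adjusted p < 0.05 in edgeR. Elavl3 and Rbfox1 lie farthest to the right in both panels, at 1.30 to 2.19, and Srrm3 stays between -0.01 and 0.12.

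Counted by library ranges, 200M was above WT without overlap for 6 of 10 members in the young pituitary (14.6% of all tested genes) and for 8 of 10 in the older (16.2%). The 200H libraries were above WT without overlap for 6 (11.6%) and 4 members (9.24%). No member's mutant libraries lay wholly below WT in the pituitary.

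Next, the 2 mutant genotypes were compared to ask whether the second copy of the allele added to the change. No member was called in 200M against 200H, in a comparison that called 0.0383% of all genes in young pituitary and 0.121% in older pituitary. At an unadjusted p under 0.05 there were 2 of 10 members in the young cohort (1081 of 18271 genes) and 5 of 10 in the older (1575 of 14862 genes). DESeq2 called 0 members in each. Without the low-count filter, 2 members were called in the older cohort, Srrm4 (0.57, adjusted p = 2.26e-06) and Elavl3 (0.56, adjusted p = 0.00424). That Srrm4 call came with a standard error of 0.099, against 0.23 in the main fit. With the filter, the Srrm4 difference was 0.28 (adjusted p = 0.821) without older 200M replicate 2. All 10 young differences and 9 of the 10 older ones were above 0. The largest young difference was that of Elavl3, at 0.35 ± 0.10 (adjusted p = 0.507). In the older cohort Elavl3 differed by 0.57 ± 0.16 (adjusted p = 0.181), Srrm4 by 0.58 ± 0.23 (adjusted p = 0.378) and Rbfox3 by 0.50 ± 0.16 (adjusted p = 0.264). The older 200M libraries were above all 200H libraries without overlap for 4 members (Elavl3, Elavl4, Rbfox2 and Rbfox3; 6.04% of all genes), by 9.32 against 9.31 CPM in the closest case, Elavl4. For the young cohort no member was free of overlap, against 1.98% of all genes. The 2 comparisons with WT share their WT libraries.

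Hypothalamus and ovary carried the same allele. In neither tissue, in either cohort, was any member called in any of the 12 comparisons. The share of all genes called was 0.0200% (200M), 0.0202% (200H) and 0% (200M against 200H) in the young hypothalamus, and 0.00622%, 0% and 0% in the older. In the young ovary it was 2.58%, 0.00510% and 0%, and in the older 2.71%, 0% and 1.61%. At an unadjusted p under 0.05 there were 0 members in each of the 6 young comparisons, and 2, 0 and 2 in the older hypothalamus and 2, 1 and 1 in the older ovary, in the same order. Over all genes, that threshold was passed by 2904 of 16067, 445 of 15910 and 3144 of 16156 in the older hypothalamus. In the older ovary it was passed by 2944 of 17792, 1160 of 17605 and 2320 of 17855, and in the young comparisons by 585 to 3114 genes. DESeq2 called 2 members, both lower, in older hypothalamus 200M against WT and 0 in the other 11 comparisons. The paper's own DESeq2 fit called far more genes in that hypothalamus comparison than edgeR did here.

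In the young hypothalamus, 200M changes ran from -0.12 ± 0.08 (SE; Elavl4) to 0.25 ± 0.15 (Srrm3). Elavl3 measured 157, 166, 172 and 176 CPM in young WT, 186, 182, 174 and 149.9 CPM in young 200H and 137, 183, 167 and 192 CPM in young 200M hypothalamus. All the groups overlapped for every member there. In the older hypothalamus all 10 members were below 0 in 200M, from -0.37 ± 0.12 (Nova2) to -0.04 ± 0.10 (Ptbp2), with a median of -0.10 beside 0.02 for all genes. Srrm4 measured 63.2, 65.3, 77.5 and 72.1 CPM in older WT, 62.5, 62.7, 61.9 and 73.4 CPM in older 200H and 54.3, 51.7 and 60.7 CPM in older 200M hypothalamus. Nova2 measured 65.1, 66.7, 88.8 and 76.8 CPM in older WT, 59.8, 63.1, 80.1 and 77.3 CPM in older 200H and 53.3, 56.8 and 63.0 CPM in older 200M hypothalamus. For Srrm4 and Nova2, 200M was below WT without overlap, as were 7.86% of all genes. DESeq2 called these 2 members, Srrm4 at -0.34 (adjusted p = 0.0455) and Nova2 at -0.38 (adjusted p = 0.0484), and edgeR gave -0.33 ± 0.10 (adjusted p = 0.142) and -0.37 ± 0.12 (adjusted p = 0.154).

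Low counts limited the ovary. All 10 members passed the low-count filter in young ovary 200H against WT and in 200M against 200H, 9 in young 200M against WT (without Srrm3), and 8 in the older ovary (without Srrm3 and Elavl4). Young 200M changes there ran from -0.25 ± 0.25 (Rbfox3) to 0.28 ± 0.21 (Rbfox1). In the older ovary they ran from -0.87 ± 0.35 (Srrm4) to 0.39 ± 0.28 (Rbfox1). Rbfox2 measured 144, 141, 142 and 147 CPM in older WT, 124, 126, 123 and 134 CPM in older 200H and 129, 74.3, 103 and 125 CPM in older 200M ovary. Rbfox2 was below WT without overlap in both mutant groups there (5.55% and 2.69% of all genes), at -0.41 ± 0.16 (adjusted p = 0.25) in 200M, which did not pass the test.

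**Figure D4:**
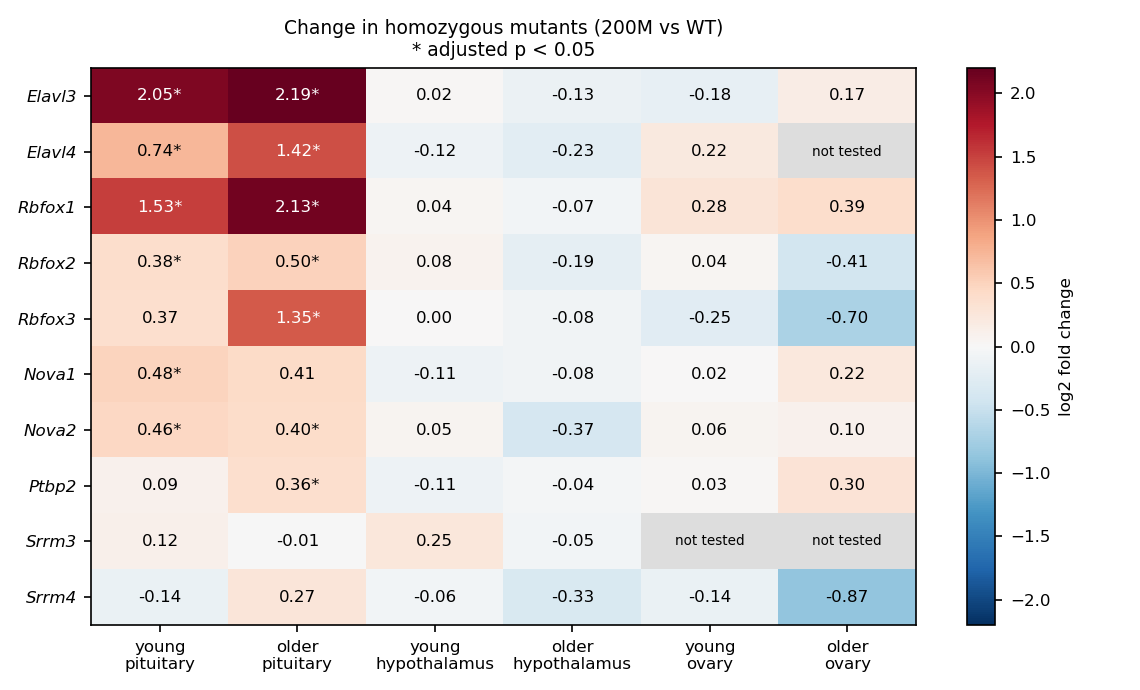
Log2 fold change of each regulator in 200M against WT (colour scale and printed values) in the 6 tissue and cohort combinations; an asterisk marks adjusted p < 0.05 in edgeR and grey marks a gene that did not pass the low-count filter. The 13 asterisks lie in the 2 pituitary columns.

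The difference between tissues was tested with an interaction term, with all libraries treated as independent. The labels do not say whether libraries of different tissues came from the same mice. Any such pairing was left out of the main fit, also in the comparison of WT pituitary with hypothalamus. The 200M effect was larger in the pituitary than in the hypothalamus for 6 of 10 members in the young cohort (6.64% of genes larger) and for 7 of 10 in the older (10.4%), and smaller for 0 in each. In the young cohort Elavl3 differed by 2.03 ± 0.18 (adjusted p = 7.13e-09), Rbfox1 by 1.49 ± 0.17 (adjusted p = 8.76e-07), Elavl4 by 0.85 ± 0.14 (adjusted p = 8.04e-05), and Nova1, Nova2 and Rbfox2 by 0.60, 0.40 and 0.31. In the older cohort the differences were 2.32 for Elavl3, 2.19 for Rbfox1, 1.65 for Elavl4, 1.42 for Rbfox3, 0.77 for Nova2, 0.69 for Rbfox2 and 0.49 for Nova1. The calls of Rbfox2 in the young cohort (adjusted p = 0.0334) and of Nova1 in the older (adjusted p = 0.0444) were lost in 8 and 10 of the fits that left out 1 library. Against the ovary, 5 members had a larger pituitary effect in the young cohort (5.68% of genes) and 4 in the older (3.29%). Elavl3 differed from its ovary effect by 2.22 ± 0.41 (adjusted p = 0.00114) and 2.04 ± 0.38 (adjusted p = 0.00668), and Rbfox1 by 1.24 ± 0.27 (adjusted p = 0.00465) and 1.80 ± 0.37 (adjusted p = 0.0129), in the order young and older. Without single libraries the young count ranged from 2 to 5; it was 2 without pituitary 200M replicate 2 or 3 or WT replicate 1, and 3 without ovary 200M replicate 1 or 4, ovary WT replicate 3 or 4, pituitary 200M replicate 1 or pituitary WT replicate 2. The older count was 2 without pituitary 200M replicate 2.

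Between the cohorts, the pituitary 200M effect differed for no member, in a test that called 0.0273% of genes. At an unadjusted p under 0.05 there were 2 members, Rbfox3 (0.92 ± 0.30) and Elavl4 (0.62 ± 0.23), beside 1257 of 18344 genes. DESeq2 called 0 members. The other 8 differences lay between -0.17 and 0.54.

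Other splicing regulators were read from lists that, like the members, were chosen with earlier results known. Of all genes, 11.5% were called higher and 10.0% lower in young 200M pituitary, and 11.7% and 9.77% in older 200M pituitary. Among 6 relatives of the members, the young 200M pituitary had 2 higher (Elavl2, a further neuronal ELAV-like gene, 0.58 ± 0.10, adjusted p = 0.000613; Elavl1, the ubiquitous HuR, 0.27 ± 0.06, adjusted p = 0.00684) and 2 lower (Ptbp1, -0.35 ± 0.06, adjusted p = 0.000634; Srrm2, -0.20 ± 0.05, adjusted p = 0.00754). In the older 200M pituitary 1 was higher (Elavl2, 0.81 ± 0.17, adjusted p = 0.00503) and 2 lower (Ptbp1, -0.42 ± 0.08, adjusted p = 0.00382; Srrm2, -0.26 ± 0.08, adjusted p = 0.0291). With total-count scaling Srrm2 in both cohorts and Ptbp1 in the older cohort were no longer called, and none of the calls named here changed sign. Ptbp1 is the non-neuronal repressor that Ptbp2 replaces in neurons. The 6 had a median of -0.05 in young and of 0.08 in older 200M.

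Of 16 further regulators listed under a neuronal or muscle bias, 7 rose and 2 fell in young 200M pituitary (11.5% and 10.0% of all genes). Their median was 0.19 beside 0.00 for all genes. Some of them, such as Qk, Mbnl1, Celf1 and Khdrbs1, also passed the low-count filter in the ovary. The count is therefore not one of neuronal or muscle genes alone. In the older cohort 4 of 15 tested rose and 1 fell (11.7% and 9.77% of all genes), with a median of 0.26 beside -0.01. Celf5, a brain-enriched CELF protein, had the largest change among those called in both cohorts, at 1.69 ± 0.12 in the young (29.2 to 36.6 CPM in 200M and 9.63 to 11.5 in WT) and 1.63 ± 0.17 in the older pituitary. Celf4 rose by 0.85 ± 0.08 and 0.67 ± 0.08 and Celf6 by 0.41 ± 0.09 and 0.40 ± 0.09. Celf2, in contrast, gave 0.03 and 0.27 and Celf3 -0.06 and -0.23, none called. Khdrbs2, Khdrbs3, Qk and Rbm24 rose in the young cohort (0.75, 0.37, 0.22 and 1.49), and of these Qk was called in the older (0.41). Rbm20, a regulator of muscle exons, fell by 0.92 and by 0.94, and Mbnl1 fell by 0.25 in the young cohort, a call lost with total-count scaling.

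Of the 3 epithelial regulators, 2 fell in 200M pituitary in each cohort, Esrp1 and Esrp2. Esrp1 fell from 73.8 to 81.9 CPM in WT to 3.92 to 6.22 CPM in 200M in the young pituitary (-3.88 ± 0.12, adjusted p = 6.90e-11) and from 79.6 to 85.2 to 4.56 to 5.73 CPM in the older (-3.96 ± 0.12, adjusted p = 2.90e-09). Esrp2 fell by 1.57 and by 2.25, from a WT level of 1.74 to 4.47 CPM over both cohorts. Rbm47, the third gene of the list, was not called in either cohort (adjusted p = 0.993 and 0.407). General spliceosome and SR or hnRNP factors were measured as a reference: 0 of 26 rose, and 1 (Snrpb) fell in the young and 2 (Snrpb and Srsf2) in the older 200M pituitary, with medians of -0.07 and -0.11. With total-count scaling Snrpb was no longer called in the young cohort (adjusted p = 0.103), nor Srsf2 in the older (adjusted p = 0.361). Rest, the repressor of neuronal genes outside neurons, gave -0.05 ± 0.14 and -0.01 ± 0.16.

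**Figure D5:**
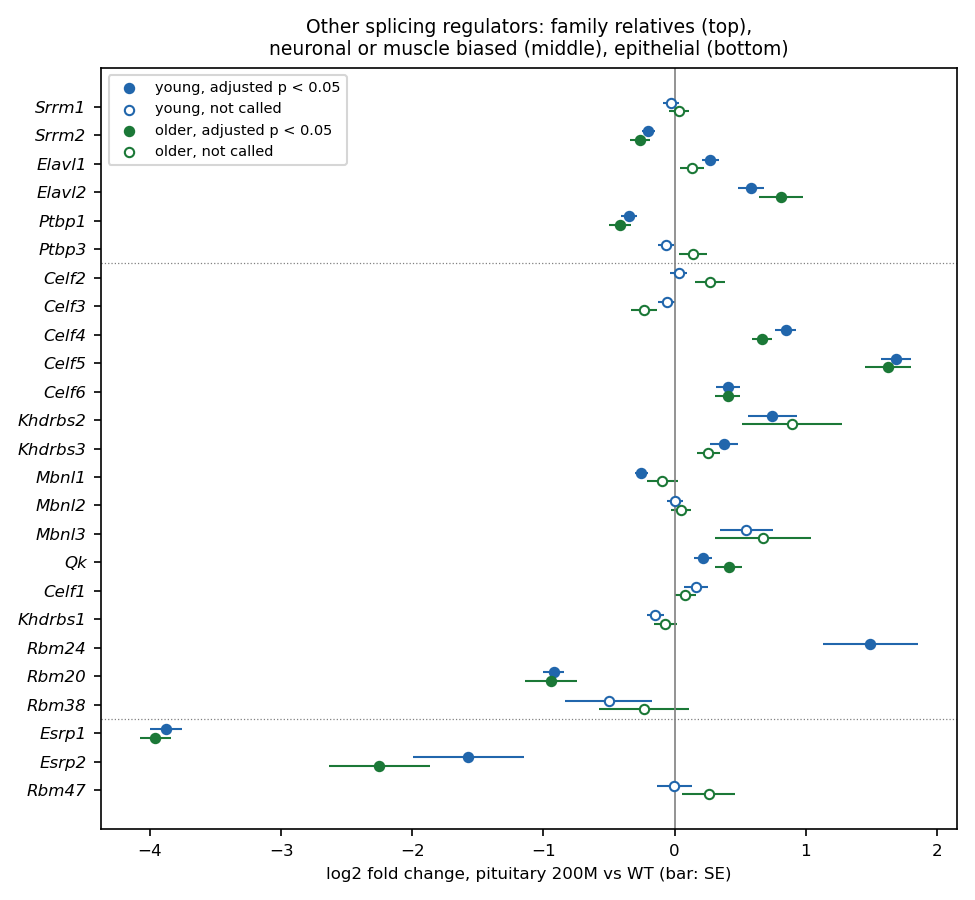
Log2 fold change in 200M against WT pituitary, with bars of 1 SE. Shown are family relatives of the members (top), regulators listed under a neuronal or muscle bias (middle) and epithelial regulators (bottom). Blue is the young and green the older cohort, and filled points passed adjusted p < 0.05. Rbm24 has no older point because it did not pass the low-count filter. Celf5 lies at 1.69 and 1.63 and Esrp1 at -3.88 and -3.96.

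Markers of other cells were set beside these results, since in whole tissue fewer cells of a type and less RNA per cell cannot be told apart. Neuronal marker genes (Snap25, Syt1, Gad1, Gad2, Slc17a6 and Slc32a1), several of which endocrine cells also express, summed to 925 to 972 CPM in young WT and 967 to 1106 CPM in young 200M pituitary, and to 596 to 708 and 835 to 902 CPM in the older. In 200H the sums were 873 to 1012 CPM in the young and 669 to 781 CPM in the older pituitary. Of these genes Snap25 and Syt1 rose in both cohorts and Slc32a1 rose in the older, whereas Gad2 fell in both (-0.97 and -0.91) and Slc17a6 fell in the young, a call lost with total-count scaling (adjusted p = 0.0540). Hypothalamic peptide genes (Oxt, Avp, Hcrt, Pmch, Agrp and Gnrh1), which would mark neurosecretory axons or attached brain tissue, summed to 2.46 to 5.11 CPM in young WT and 2.16 to 4.37 CPM in young 200M. In the older cohort they summed to 5.64 to 8.06 CPM in WT and 12.0 to 14.7 CPM in 200M, where Oxt rose by 1.25 (adjusted p = 0.00494) and Pmch was at 0 in every library. In WT hypothalamus the same genes summed to 371 to 1013 CPM.

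Genes of pituicytes and astrocytes (Gfap, Aqp4, Rax, Nkx2-1 and Slc1a3) summed to 46.0 to 52.4 CPM in young WT and 53.8 to 55.1 in young 200M, with Nkx2-1 called higher (0.67), and to 32.3 to 44.4 and 43.5 to 53.2 CPM in the older cohort, with Gfap called higher (0.99). Oligodendrocyte genes were not higher in 200M: Mbp fell in both cohorts (-1.08 and -0.79), and their sum was 70.1 to 79.3 CPM in young WT and 43.0 to 46.4 in young 200M, and 62.0 to 87.7 and 45.2 to 55.5 CPM in the older. Genes listed as melanotrope markers (Pax7, Pcsk2 and Tbx19) summed to 368 to 463 CPM in young WT and 431 to 582 in young 200M (Tbx19 called higher). In older WT and 200M they summed to 299 to 444 and 417 to 678 CPM (Pax7 and Pcsk2 called higher). Pcsk2 also passed the low-count filter in the young hypothalamus, so this sum cannot be read as melanotropes alone. Endocrine genes (Gh, Prl, Pomc, Lhb, Fshb, Tshb, Cga and Pou1f1) fell in sum, from 163977 to 187198 CPM in young WT to 67994 to 87799 in young 200M and from 289913 to 322099 to 162064 to 211049 in the older, with Prl lower by 1.61 and by 1.66 on the log2 scale and Lhb lower by 1.68 and by 2.33. Such a sum follows its most abundant genes and does not show that each gene fell. The paper reports that Fshb was unaffected in the mutant pituitary. The paper also compared exon and intron reads, and reports a strong correlation of their fold changes for neuronal genes in 200M pituitary. From this it proposes that the changes were largely transcriptional and in the anterior pituitary. Intron reads were not examined here, and the part of any of these cell types in the changes of the 10 members was not tested.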

How the data were processed

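RNA-seq libraries of pituitary, hypothalamus and ovary from 69 mouse samples were read from 18 tables of gene counts deposited by the authors. The authors aligned reads with STAR 2.7.1a to GRCm38 (mm10); young libraries (rRNA-depleted, stranded, paired-end) and older ovary libraries were counted with featureCounts, and older pituitary and hypothalamus libraries (poly(A), unstranded, single-end) with HTSeq 0.9.1. Strand was used in counting only for the young cohort. Of 69 libraries, 66 stand in 2 tables with identical counts and were used once. Left out were 3 columns of WT counts in the young pituitary 200H table, where a name stands on more than 1 column, and 141 further per-sample columns (normalized values), along with the authors' own fold changes and p-values. Total counts were 3321845 to 14655095 per library, which limits low genes most in the young hypothalamus.

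The members, the other gene lists and the comparisons were chosen with earlier results of these data known. Counts were tested for all genes of a tissue and cohort with edgeR 4.0.16 (R 4.3.3): filterByExpr, TMM scaling, and the quasi-likelihood test with Benjamini-Hochberg adjustment over all genes tested, called at 0.05. Each comparison of genotypes was fitted on its 2 groups, and differences between tissues or cohorts on an interaction term. The named genes are the 10 members plus called genes of the listed regulators and markers. Alternatives were DESeq2 1.42.0, its size factors, total-count scaling, no low-count filter, a replicate block and leaving out each library. Fits were tested on simulated data. One young WT pituitary column carries a replicate number that no sample label has, and it was used as an unnumbered library of its group. Replicates are different mice. Over 99 replicate pairs, chi-square per degree of freedom was 1.89 to 68.0, so no pair agreed within sampling noise.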

Additional observations from a re-analysis of the deposited data

Results flagged for a closer look

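Among 150 groups of 4 libraries tested for a library far from the others, 10 held one by Dixon's test, where chance alone gives about 5%. In the older pituitary, WT replicate 1 had 135.8 CPM of Rbfox2 against 157.1 to 160.3 in the other 3. In the older hypothalamus, 200H replicate 4 was high for Ptbp2 (131.4 CPM, others 121.2 to 122.7) and for Srrm4 (73.4, others 61.9 to 62.7). In the young ovary, high libraries were 200H replicate 4 for Elavl3 (4.99, others 2.61 to 2.96), WT replicate 4 for Rbfox1 (5.48, others 3.61 to 3.80), 200H replicate 3 for Nova2 (28.2, others 19.2 to 19.5) and WT replicate 2 for Srrm3 (1.52, others 0.574 to 0.729), and a low one was 200M replicate 2 for Srrm4 (1.84, others 3.22 to 3.40). In the older ovary, 200M replicate 2 was high for Elavl4 (1.22, others 0.320 to 0.459) and 200H replicate 2 for Nova2 (10.9, others 7.61 to 7.69).

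The 200M effect of a member differed between tissues in 22 interaction tests, all larger in the pituitary, with 10 members tested in each comparison. Of all genes, 6.64% were called larger in the pituitary against the young hypothalamus and 5.68% against the young ovary. Against the older hypothalamus and ovary it was 10.4% and 3.29%. Several of the member calls were lost when single libraries were left out, as given above. Against the young hypothalamus the log2 differences were 2.03 for Elavl3, 1.49 for Rbfox1, 0.85 for Elavl4, 0.60 for Nova1, 0.40 for Nova2 and 0.31 for Rbfox2. Against the young ovary they were 2.22 for Elavl3, 1.24 for Rbfox1, 0.48 for Nova1, 0.41 for Nova2 and 0.35 for Rbfox2. Against the older hypothalamus they were 2.32 for Elavl3, 2.19 for Rbfox1, 1.65 for Elavl4, 1.42 for Rbfox3, 0.77 for Nova2, 0.69 for Rbfox2 and 0.49 for Nova1. Against the older ovary they were 2.10 for Rbfox3, 2.04 for Elavl3, 1.80 for Rbfox1 and 0.93 for Rbfox2. The tests within a cohort share the pituitary libraries.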

How the results depend on the processing

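The number of members called moved by over 1.5 times in 4 of 125 alternatives other than leaving out a library: from 5 to 8 in older pituitary 200H against WT with total counts, from 0 to 2 in older pituitary 200M against 200H without the low-count filter, and from 0 to 2 in older hypothalamus 200M against WT with DESeq2 and, again 2, without the filter. Leaving out single libraries gave 3 to 7 members in young pituitary 200H, 3 to 5 in older pituitary 200H, 2 to 5 in young pituitary minus ovary and 2 to 5 in older pituitary minus ovary. Replicate numbers did not pair the samples in any of 18 comparisons, and a replicate block gave 6 (young 200M), 4 (young 200H), 8 (older 200M) and 5 (older 200H) called members in the pituitary. Signs reversed for Srrm3 in older 200M (0.17) and Srrm4 in young pituitary minus hypothalamus (0.0095) with total counts, and with the block for Srrm4 in young pituitary minus ovary (-0.0912) and Elavl3 in older minus young pituitary (-0.0867). The causes were not tested. Total-count CPM moved Rbfox2 to 184.8 (young WT), 242.5 (young 200H) and 226.2 (older 200M) in pituitary and 294.8 in young 200M hypothalamus, Nova1 to 84.2 (young 200M), Ptbp2 to 117.0 (young WT) and Srrm3 to 55.3 (older WT).

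Leaving out libraries reversed differences near 0. In young pituitary against WT, Srrm4 in 200M ranged from -0.26 to 0.0050, and in 200H Srrm3 from -0.0054 to 0.17 and Rbfox3 from -0.024 to 0.36. In young 200M against 200H, Srrm3 ranged from -0.0279 to 0.0697 and Ptbp2 from -0.0363 to 0.0400. In older 200M, Srrm3 ranged from -0.0616 to 0.0241, Srrm4 from -0.0209 to 0.56 and, against 200H, Nova1 from -0.0045 to 0.14. Between tissues and cohorts the ranges were -0.20 to 0.0620 for Srrm4 (young, hypothalamus), -0.77 to 0.0027 for Srrm3 and -0.17 to 0.18 for Srrm4 (young, ovary), -0.0563 to 0.11 for Srrm3 (older, hypothalamus), -0.0356 to 0.31 for Ptbp2 (older, ovary), -0.18 to 0.0073 for Nova2 and -0.0917 to 0.27 for Elavl3 (older minus young), and -0.15 to 0.0256 for Srrm3 in older WT pituitary against hypothalamus. Of the other alternatives' 650 gene values, 623 kept their direction and side of the threshold.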
